A study of Drosophila melanogaster with 3 samples.

Results

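The 10 genes described here are the Notch receptor gene N, its ligand gene Ser, the genes fng, neur, Su(H), mam and H that modify, activate or carry the signal, and 3 target genes of the Enhancer of split complex, E(spl)m5-HLH, E(spl)m8-HLH and E(spl)mgamma-HLH. They are 10 of the 13945 protein-coding genes annotated on the 6 chromosome arms, and they were listed by name. A peak was taken for a gene when its summit lay in the annotated gene or within 2 kb of it, a stretch called the gene's window below. The peaks are sites of E(bx), the large subunit of the nucleosome remodelling factor NURF, in whole fruit fly embryos of 0-16 h with both sexes pooled. The line stably expresses E(bx) with GFP fused at its C terminus, all libraries come from this line, and there is 1 group of 3 biological replicates, so nothing was compared between conditions. The description gives an anti-GFP antibody while the antibody field reads E(bx). The embryos also hold every tissue formed up to that age, so a summit cannot be given to a cell type. The records name a possible control, which was not analysed here.

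In Notch signalling a ligand on one cell, such as Serrate, binds the receptor on its neighbour, and the receptor is cut so that its intracellular part enters the nucleus. There it joins the DNA-binding protein Su(H) and the coactivator Mastermind and switches on targets, among which the E(spl) genes encode basic helix-loop-helix repressors that hold back neural fate in the fly embryo. Without signal, Hairless ties Su(H) to the corepressors Groucho and CtBP. Fringe adds sugars to the receptor and changes which ligand it answers to, and Neuralized is a ubiquitin ligase that drives uptake of the ligand in the sending cell.

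In the authors' reproducible peak set (IDR set, 9708 peaks), tagged E(bx) was found beside the start sites of N, H, Su(H), mam and neur and not beside those of Ser, fng, E(spl)m5-HLH, E(spl)m8-HLH or E(spl)mgamma-HLH. An IDR summit lay in the window of 6 of the 10 genes, compared with 65.8% of all protein-coding genes. An IDR summit lay within 500 bp of an annotated start site of 5 of the 10, compared with 50.3% of all protein-coding genes, so both counts are close to the genome's. The 6 windows held 27 IDR summits. Of these, 11 had the gene's own start site as the nearest and 16 were nearer to the start site of another gene. This changes how the summits around neur and E(spl)m8-HLH read. Others of the 16 lay in introns of N and mam, up to 10004 bp from that other start site.

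The 250 bases before the start site are shown for the genes on which these contrasts rest, in dm6 coordinates and in the direction of the gene, read from the Release 6 genome sequence. N, H, Su(H) and gro, the neighbour of E(spl)m8-HLH, carried an IDR summit here, and neur carried one at its internal start site. The promoters of fng, E(spl)m5-HLH, E(spl)m8-HLH and E(spl)mgamma-HLH are shown because none held an IDR summit. That of Ser, also without one, is not shown. Capitals mark matches on either strand to 11 motifs: GTGGGAA, the common spelling of the Su(H) site, and GTGAGAA, the other spelling of it, then GAGAG, bound by GAGA factor, then TATCGATA, the palindrome that DREF binds, with the shorter CGATA that it contains. The E-boxes were CAGCTG, which proneural proteins bind, next to CAGGTG, also an E-box, and the palindrome CACGTG. The rest were CAGGTAG, bound by Zelda, the core promoter motif GGTCACACT and the TATA box spelling TATAAA. The share of all start site windows holding each, in that order, was 3.2%, 2.52%, 29.1%, 6.9%, 41%, 14%, 8.16%, 2.8%, 1.52%, 2.83% and 39.6%.
N, chrX:3134620-3134869, plus strand: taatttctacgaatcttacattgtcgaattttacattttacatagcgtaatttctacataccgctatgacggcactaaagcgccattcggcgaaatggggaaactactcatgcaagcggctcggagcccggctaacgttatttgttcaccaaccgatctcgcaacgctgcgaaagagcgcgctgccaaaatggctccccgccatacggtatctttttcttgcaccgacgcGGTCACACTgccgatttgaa
H, chr3R:20621688-20621937, plus strand: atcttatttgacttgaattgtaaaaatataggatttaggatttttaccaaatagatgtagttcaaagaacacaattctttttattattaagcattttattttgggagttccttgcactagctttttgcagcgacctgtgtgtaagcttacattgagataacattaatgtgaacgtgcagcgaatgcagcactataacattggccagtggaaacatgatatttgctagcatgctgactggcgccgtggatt
Su(H), chr2L:15039238-15039487, plus strand: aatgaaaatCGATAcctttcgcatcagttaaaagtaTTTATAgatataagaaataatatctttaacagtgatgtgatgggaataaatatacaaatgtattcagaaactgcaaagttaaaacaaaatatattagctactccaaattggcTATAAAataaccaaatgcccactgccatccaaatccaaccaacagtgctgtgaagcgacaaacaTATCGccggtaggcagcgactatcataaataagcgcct
neur (internal start site), chr3R:9033732-9033981, minus strand: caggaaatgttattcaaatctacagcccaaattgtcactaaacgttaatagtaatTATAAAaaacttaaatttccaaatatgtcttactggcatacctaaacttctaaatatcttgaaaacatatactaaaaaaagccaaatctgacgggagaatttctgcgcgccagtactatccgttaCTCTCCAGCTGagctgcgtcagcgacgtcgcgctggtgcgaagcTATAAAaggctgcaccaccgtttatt
gro, chr3R:26041486-26041735, plus strand: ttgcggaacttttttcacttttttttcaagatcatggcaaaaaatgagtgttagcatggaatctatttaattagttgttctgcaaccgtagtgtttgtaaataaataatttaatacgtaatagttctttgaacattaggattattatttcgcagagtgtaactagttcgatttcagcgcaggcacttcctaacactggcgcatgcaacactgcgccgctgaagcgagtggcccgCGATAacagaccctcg
fng, chr3L:20949513-20949762, minus strand: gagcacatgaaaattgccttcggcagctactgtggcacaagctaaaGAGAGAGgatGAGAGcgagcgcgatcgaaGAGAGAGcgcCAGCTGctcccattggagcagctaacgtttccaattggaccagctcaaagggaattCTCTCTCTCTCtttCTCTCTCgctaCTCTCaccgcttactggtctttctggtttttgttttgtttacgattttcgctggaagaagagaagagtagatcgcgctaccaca
E(spl)m8-HLH, chr3R:26039990-26040239, plus strand: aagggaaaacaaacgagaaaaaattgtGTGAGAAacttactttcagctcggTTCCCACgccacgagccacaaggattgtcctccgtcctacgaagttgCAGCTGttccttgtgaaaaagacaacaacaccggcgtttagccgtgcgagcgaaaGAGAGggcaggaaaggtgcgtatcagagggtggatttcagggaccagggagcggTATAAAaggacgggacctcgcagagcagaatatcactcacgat
E(spl)m5-HLH, chr3R:26029736-26029985, minus strand: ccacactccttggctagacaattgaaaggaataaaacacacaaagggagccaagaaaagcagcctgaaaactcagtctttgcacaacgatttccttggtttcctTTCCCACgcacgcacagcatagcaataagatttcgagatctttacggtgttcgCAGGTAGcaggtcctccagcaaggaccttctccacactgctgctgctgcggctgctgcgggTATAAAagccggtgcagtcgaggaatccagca
E(spl)mgamma-HLH, chr3R:25999601-25999850, plus strand: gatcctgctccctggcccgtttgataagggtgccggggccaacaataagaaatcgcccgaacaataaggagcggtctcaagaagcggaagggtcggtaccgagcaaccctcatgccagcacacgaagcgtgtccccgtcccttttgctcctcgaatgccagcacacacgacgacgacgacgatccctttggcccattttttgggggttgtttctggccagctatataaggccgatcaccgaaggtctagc

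Of the promoters shown, those of E(spl)m8-HLH and E(spl)m5-HLH, without an IDR summit, held Su(H) spellings. Those of fng and E(spl)mgamma-HLH, also without one, held none, and neither did the 5 with an IDR summit. The window before the first Ser start site, not shown, held GAGAG as its only motif. E(spl)m8-HLH had GTGAGAA from base -223 to -217 and GTGGGAA on the other strand from -199 to -193, counted from the start site, followed by a CAGCTG E-box from -152 to -147, 1 GAGAG and a TATAAA from -43 to -38. At least 2 such heptamers were found in 37 of the 19253 windows of this length before distinct protein-coding start sites (0.192%), and at least 1 in 5.67%. E(spl)m5-HLH had 1 GTGGGAA, on the other strand from -146 to -140, besides a CAGGTAG and a TATAAA. E(spl)mgamma-HLH had no match to any of the 11 motifs. Such matches describe the letters only, and no match says nothing of the factor.

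Among the bound promoters, N held GGTCACACT from -20 to -12, a motif present in 2.83% of the start site windows, H held no match, and gro held 1 CGATA. The internal neur promoter held 1 GAGAG, 1 CAGCTG and 2 TATAAA matches. Su(H) held 2 CGATA and 2 TATAAA matches, with 1 CGATA from -38 to -34, where the pooled summit also lay. The most repeated motif stood at a promoter without an IDR summit: fng had 12 GAGAG matches, many of which overlap, between -204 and -80, and at least 12 were found in 69 start site windows (0.358%). Over the 27 IDR summits, GAGAG was found in 44.4% of the windows reaching 100 bp to each side of them, compared with 27.9% of all IDR windows, and CGATA in 44.4% compared with 40.7%. A Su(H) heptamer was found in 1 of the 27 windows (3.7%, against 5.44% of all IDR windows).

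The receptor gene N (FBgn0004647, X 3134870 to 3172221, plus strand, 37.4 kb) carried a strong summit just before its only annotated start site. The summit at 3134753 (-117 bp from the start site) had a signal value of 1528 and rank 690 of 9708. This value is deposited with each peak and its scale is not given, so ranks within a list are used to set libraries side by side. The matching summits ranked 952 in replicate 1, 541 in replicate 2 and 556 in replicate 3, and no other gene's start site lay within 500 bp. Their positions were -131, -107 and -110 bp (mean -116 bp ± 13.1, SD, n = 3), a spread that is small beside the 547 bp of the peak.

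The other IDR summits of the N window were of different kinds. The summit at 3173201 (signal value 1136, rank 1608) lay past the end of N, 61 bp upstream of the start site of CG18508. In an intron 28266 bp inside N, the summit at 3163136 was weak (signal value 271, rank 7246), and every library listed a peak within 200 bp of it among its own 9708 best. In replicate 1 that peak only just qualified, at rank 9686, and a nearer one ranked 10342. In the long lists, whose file records call them peaks and background, the N window held 15, 9 and 26 summits in replicates 1, 2 and 3 and 20 in the list called on pooled reads.

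Hairless, the gene of the adaptor for repression, had the smallest spread of positions among the 5 promoter summits followed across the replicates. H (FBgn0001169, 3R 20621938 to 20628915, plus strand) held 1 IDR summit, at 20621913, 25 bp before its only start site, with a signal value of 1588 and rank 589. In replicates 1, 2 and 3 its rank was 558, 482 and 928 and its position -22, -22 and -25 bp (mean -23 bp ± 1.73, SD, n = 3). The rest of the 11 kb window held no reproducible summit, while the long replicate lists held 1, 2 and 5 in the window.

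Su(H), which encodes the DNA-binding protein of the pathway, had a lower-ranking summit at its start site than H. In Su(H) (FBgn0004837, 2L 15039488 to 15043334, plus strand) the summit at 15039450, 38 bp before the start site, had a signal value of 832 and rank 2869. It ranked 1713 and 2505 in replicates 1 and 2 but 5268 in replicate 3, and its positions were -47, -38 and -10 bp (mean -31.7 bp ± 19.3, SD, n = 3), a wider spread than at H. A weaker summit at 15038862 (signal value 197, rank 8566) lay 1 bp before the start site of CIAPIN1, an iron-sulphur cluster assembly gene transcribed in the other direction. That summit ranked 7258, 5665 and 9361 in replicates 1, 2 and 3, so it stood lowest in replicate 3 too.

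Around neur the strong summits belonged by distance to its neighbours. neur (FBgn0002932, 3R 9020348 to 9039471, minus strand) had 5 IDR summits in its window, a number reached by 453 of 13945 genes (3.25%) and by 189 of the 1073 genes with a window at least as long (17.6%). The summit at 9039690 (signal value 1589, rank 580) lay at -219 bp from the first neur start site but at -76 bp from a start site of hyx, which encodes a component of the Paf1 elongation complex and runs in the other direction. It ranked 602, 619 and 760 in the replicates, at -230, -233 and -217 bp from the neur start (mean -227 bp ± 8.5, SD, n = 3). The summit at 9038888 (signal value 743, rank 3319) lay 583 bp inside neur and 128 bp inside hyx, in its 5′ UTR. The strongest of the window, at 9020051 (signal value 1595, rank 572; ranks 779, 750 and 224 in the replicates), lay past the end of neur and 29 bp before the start site of tgo, which encodes a bHLH-PAS transcription factor.

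Only 2 weak summits were nearest to a neur start site, the internal one at 9033731. They stood at -219 and -424 bp from it, in an intron of the longer transcript, with signal values of 348 (rank 6354) and 232 (rank 7845). Replicate 1 placed its summits there at -139 and -350 bp (ranks 5819 and 7772) and replicate 2 at -82 and -295 bp (ranks 7248 and 10460), while replicate 3 had a single summit at -377 bp (rank 4965). All 3 libraries thus had peaks in this stretch, but they split it differently. The only Su(H) heptamer in a member's summit window was found elsewhere, 53 bp from the summit at 9038888, which lay 583 bp inside neur and 128 bp inside hyx. It is shown with 10 bases to each side and the heptamer in capitals.
neur and hyx, chr3R:9038928-9038954, plus strand: tgtgtgggtgGTGGGAAggtcacaaac

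**Figure D1:**
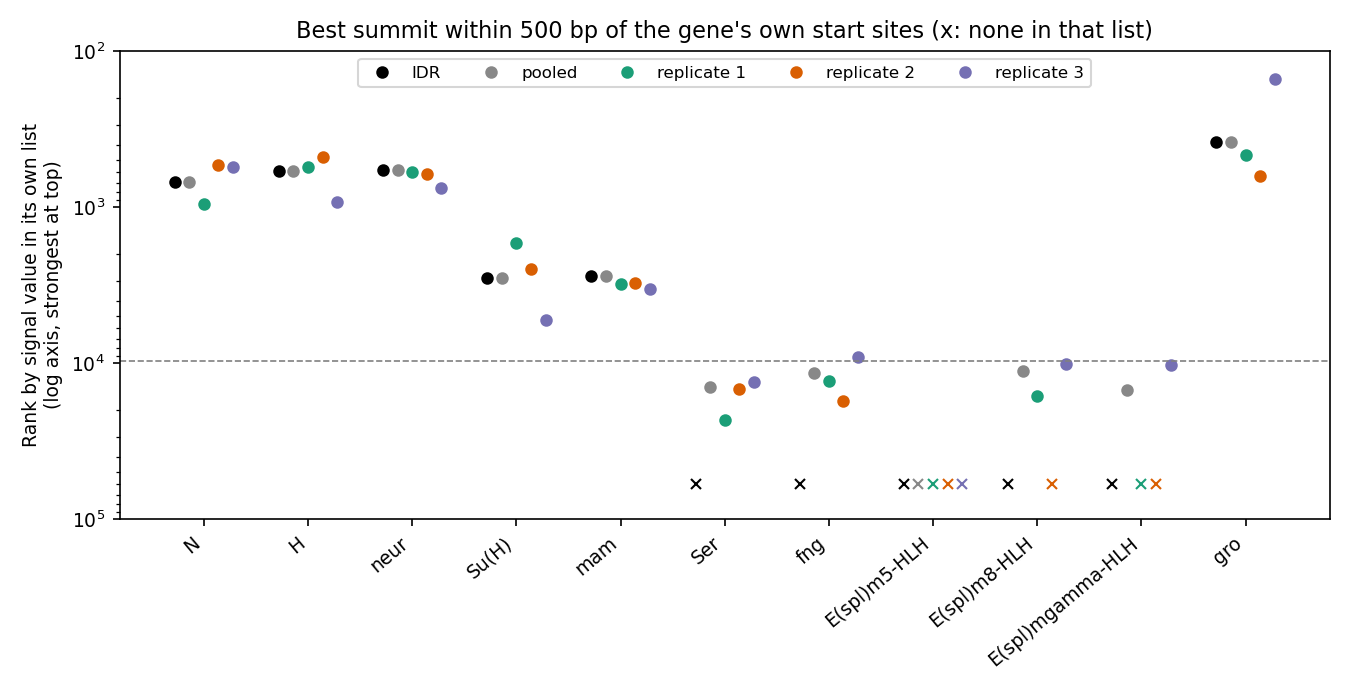
Rank by signal value (log axis, strongest at the top) of the best summit within 500 bp of each gene's own start sites, in the IDR, pooled and replicate lists. Points are single peaks, crosses mark lists with none, and the dashed line is rank 9708, the length of the IDR set. The neur points are peaks nearer to a start site of hyx. N, H, neur, Su(H), mam and gro lie above the line in all 5 lists, and of the other 5 genes only fng rises above it, in replicate 3 at rank 9156.

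The ligand gene Ser and the glycosyltransferase gene fng had no IDR summit although their windows are long. Ser (FBgn0004197, 3R 27172090 to 27194267, minus strand) has a window of 26.2 kb, and of the 920 genes with a window at least that long 175 had no IDR summit. fng (FBgn0011591, 3L 20925891 to 20949512, minus strand) has one of 27.6 kb, and 159 of the 859 genes with such a window had none. Weak peaks were nevertheless listed within 500 bp of a start site of both genes in every library, though not all at the same place. At Ser the best ranked 23139, 14740 and 13200 in replicates 1, 2 and 3, and 14178 in the pooled list, where it was the only summit of the window. The replicate 1 peak lay 6 bp inside an internal Ser start site. Those of replicates 2 and 3 lay 17 and 38 bp inside the first. At fng the best ranked 13048, 17490 and 9156, and 11617 in the pooled list, where the summit lay 17 bp inside the gene. Replicates 1 and 3 had theirs at 4 and -19 bp from the start site, but replicate 2 at -199 bp. Including these weaker peaks, 9 of the 10 genes had a pooled summit within 500 bp of a start site, compared with 61.5% of all protein-coding genes.

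The coactivator gene mam differed from the others by many weak summits inside the gene. mam (FBgn0002643, 2R 13991203 to 14060356, plus strand, 69.2 kb) had 12 IDR summits in its window, a number reached by 10 of the 13945 genes. The window is long, but among the 178 genes with a window at least as long the median was 3 and 8 had 12 or more (4.49%). Per 10 kb of window mam held 1.64 IDR summits, compared with 0.725 over the genome. Over the windows of all protein-coding genes the rate was 1.32, but their median length is 6.17 kb and a shared summit counts for each window.

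At the mam start site the strongest summit, at 13991095 (-108 bp), had a signal value of 848 and rank 2782, and a neighbouring one at 13990756 (signal value 727, rank 3414) lay 49 bp before the start site of RN-tre, a Rab GTPase-activating protein gene that runs in the other direction. Replicate 3 also had summits at both, at -169 and -439 bp from mam (ranks 3389 and 3354). Replicates 1 and 2 had 1 summit each between them, at -167 and -146 bp (ranks 3114 and 3094). The mean over the replicates for the mam summit was -161 bp ± 12.7 (SD, n = 3).

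The other 10 summits of mam were in its introns, with signal values from 158 to 399, all below the 519 that is the median of the IDR set. The strongest of them lay at 14044362, 12699 bp inside the transcript that starts nearest (signal value 399, rank 5841), and ranked 5715, 5882 and 6079 in the replicates. Next came the summit at 14008471 (signal value 388, rank 5937), at -728 bp from an internal mam start site, with ranks 7915, 5075 and 5695. Of the 10, 3 were matched within 200 bp by one of the 9708 best peaks in every replicate. By distance 1 of the 10 was nearest to the start of the microRNA gene mir-4978, 3 to that of a separately annotated mature mir-4978 transcript and 1 to CG18371, all of which lie inside mam. GAGAG was present within 100 bp of 7 of the 10, with 8 matches at the strongest, compared with 27.9% of all IDR windows. These 7 are among the 12 windows behind the 44.4% given for all members. Of all IDR summits 74.1% lay within 500 bp of a start site, and the share among intronic IDR windows was not computed. The long lists were close in number, with 42, 41 and 46 summits in replicates 1, 2 and 3.

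**Figure D2:**
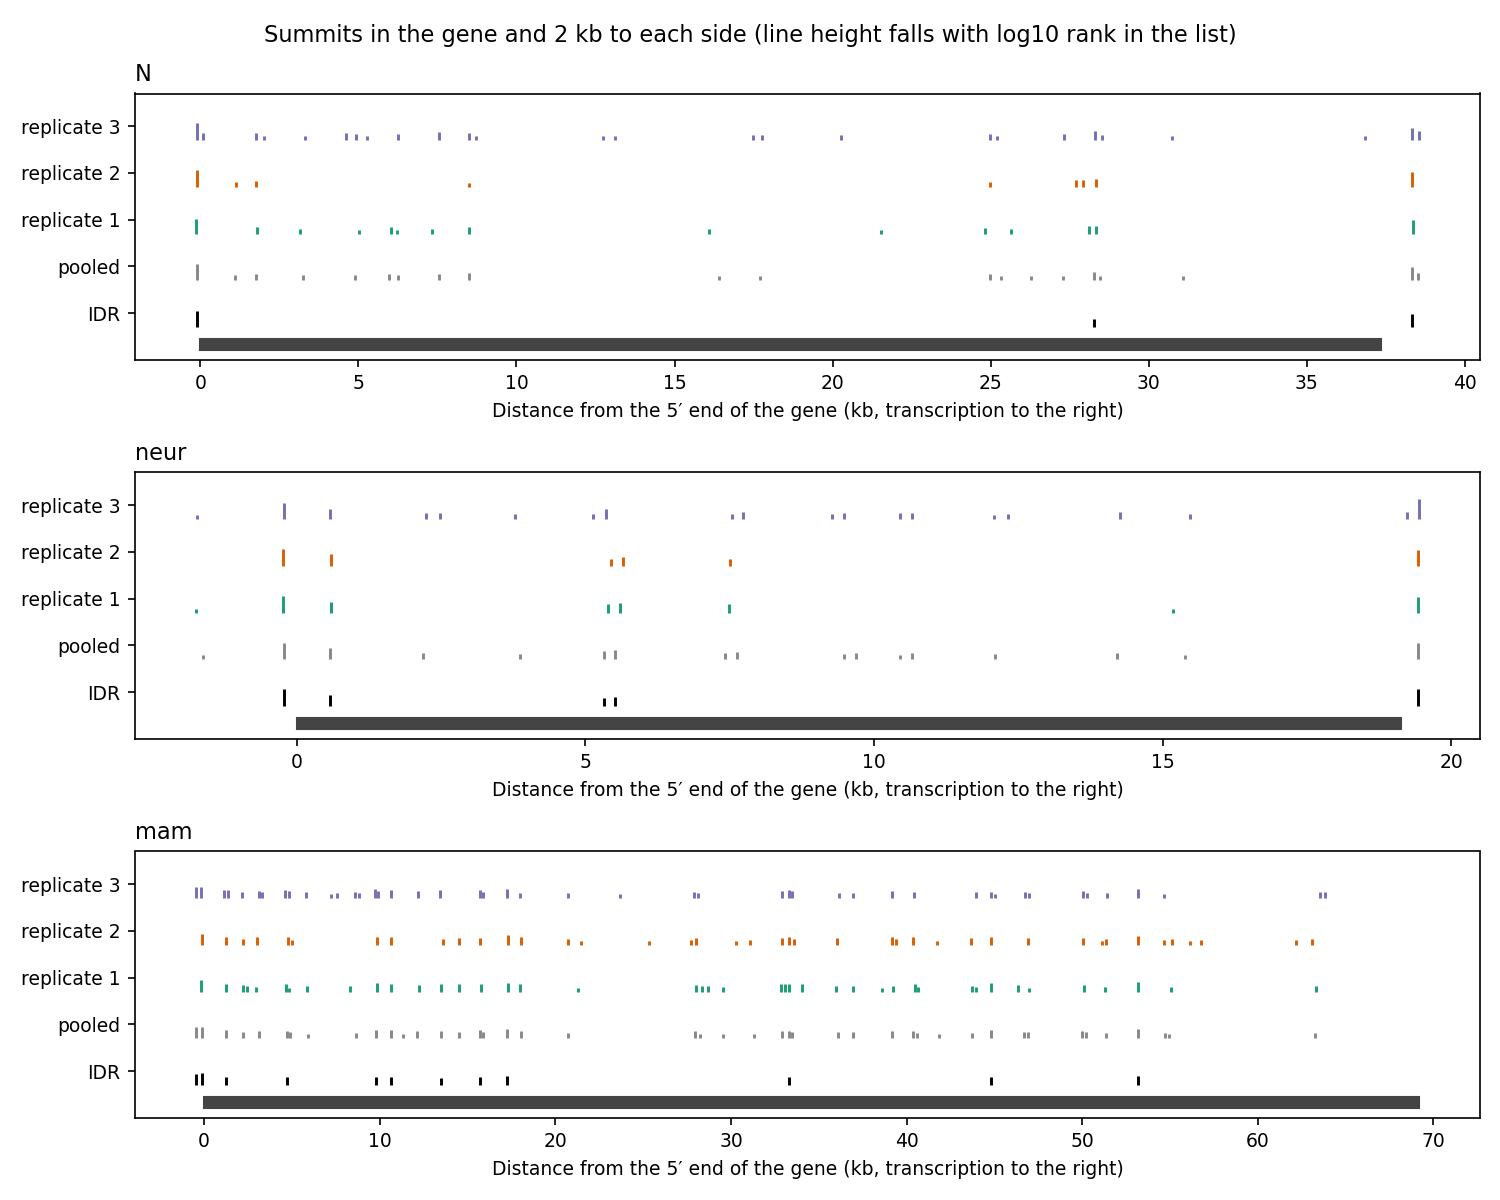
Summits of each list along N, neur and mam, in kb from the 5′ end of the gene, with transcription to the right and the gene as a grey bar. Each line is 1 summit and its height falls with the log10 rank in its list. N and neur carry their tall lines at the gene ends, while the 12 IDR summits of mam include 10 short ones spread through the gene.

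None of the 3 E(spl) genes had an IDR summit that was nearest to its own start site. The window of E(spl)m8-HLH (FBgn0000591, 3R 26040240 to 26041008, plus strand) held 4 IDR summits, but all were nearest to start sites of gro, the gene of the corepressor Groucho, which follows E(spl)m8-HLH on the same strand. The strongest, at 26041693, lay 43 bp before the first gro start site with a signal value of 1762 and rank 386, and ranked 464, 632 and 151 in the replicates. The other 3 had signal values of 575, 593 and 350. At its own start site E(spl)m8-HLH had only weak peaks, at rank 11318 in the pooled list (14 bp upstream), 16245 in replicate 1 (5 bp upstream) and 10174 in replicate 3 (2 bp downstream), and none in replicate 2.

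At E(spl)mgamma-HLH and E(spl)m5-HLH the only library with peaks was replicate 3. E(spl)mgamma-HLH (FBgn0002735, 3R 25999851 to 26000761, plus strand) had 0, 0 and 4 summits in the windows of replicates 1, 2 and 3, and the best ranked 10312 in replicate 3, 6 bp before the start site. E(spl)m5-HLH (FBgn0002631, 3R 26028854 to 26029735, minus strand) also had 0, 0 and 4, the best at rank 12543, and none lay within 500 bp of the start site. These ranks are past the 9708 best peaks of that library. A window with peaks in replicate 3 and none in the full lists of the other replicates was found for 217 of 13945 genes (1.56%), so the 2 of 10 seen here are not a common pattern, though only short windows with few peaks can show it. More generally, 7 of the 10 genes, these 2 included, had more summits in replicate 3 than in either other replicate, compared with 29.3% of all protein-coding genes. That share was not matched for window length, and short windows with few summits tie more easily. Library depth is unknown here and its part in this pattern was not tested.

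Over the whole E(spl) complex, weak peaks were many in replicate 3 and in the pooled list, while the IDR set held 2 summits. From the start of E(spl)mdelta-HLH to the end of E(spl)m8-HLH, a stretch of 43.4 kb (3R 25997621 to 26041008), the pooled list held 30 summits, or 6.91 per 10 kb compared with 2.24 over the genome. The pooled list includes the reads of replicate 3 and is not independent of it. The IDR set held 2, or 0.461 per 10 kb compared with 0.725, a difference that rests on very few summits. The lists of replicates 1, 2 and 3 held 13, 6 and 38 summits here, of which 2, 1 and 3 were among the 9708 best of each library. Per 10 kb replicate 1 held 3 (2.24 over the genome), replicate 2 held 1.38 (2.16 over the genome) and replicate 3 held 8.76 (2.24 over the genome). Replicate 2 thus lay below its genome rate and replicate 3 far above it.

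The 2 IDR summits of the complex were weak. At 26021326 (signal value 237, rank 7760) the summit lay 250 bp before the start site of lncRNA:CR43644 and at -497 bp from that of E(spl)m3-HLH, and it ranked 8374, 9379 and 8273 in the replicates. At 26036745 (signal value 175, rank 9143) it lay at -293 bp from the start site of E(spl)m7-HLH and had a match in replicate 3 only, at rank 7478. No other gene of the complex, namely E(spl)mdelta-HLH, E(spl)mbeta-HLH, E(spl)malpha-BFM, E(spl)m1 (annotated as Kaz-m1), E(spl)m2-BFM, E(spl)m4-BFM or E(spl)m6-BFM, had an IDR summit in its window.

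**Figure D3:**
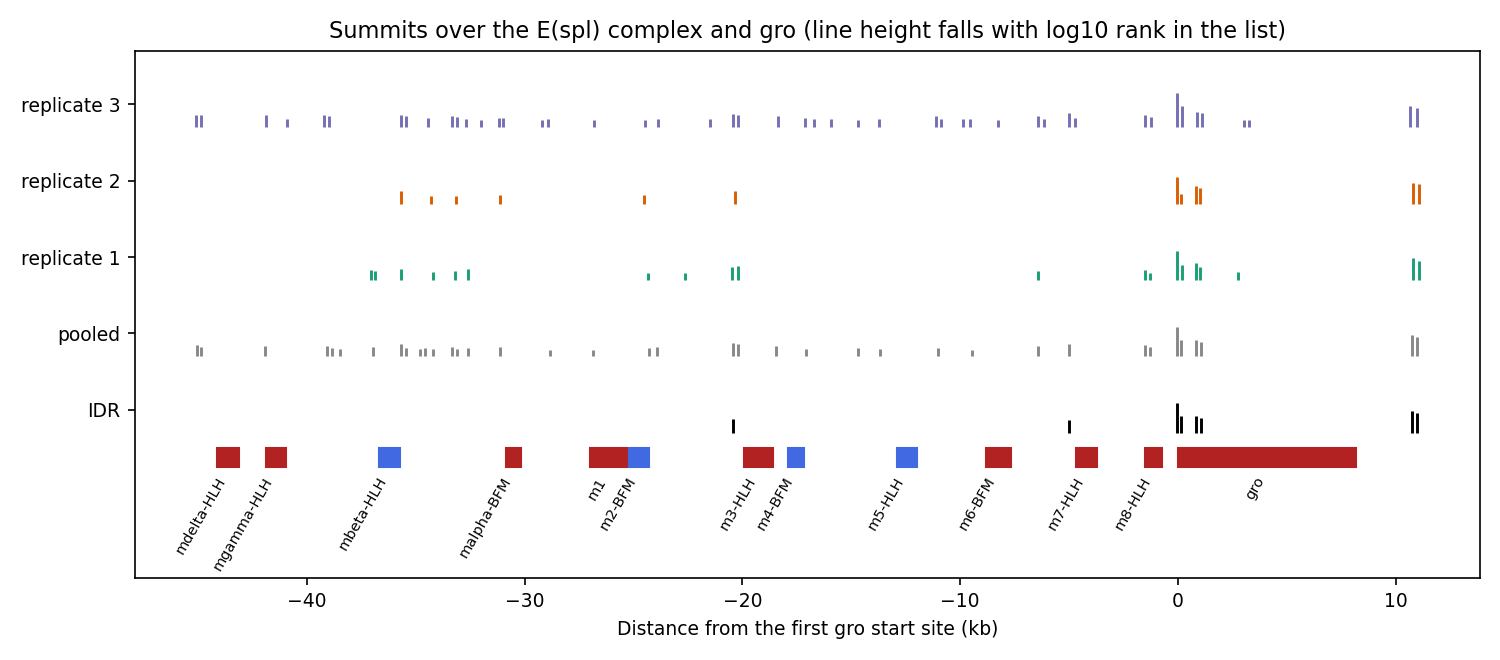
Summits of each list over the E(spl) complex and gro, in kb from the first gro start site. Red bars are genes on the plus strand and blue bars genes on the minus strand, and line height falls with the log10 rank in the list. Replicate 3 and the pooled list show short lines across the complex, while the tallest line of each of the 5 lists stands at the first gro start site.

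**Figure D4:**
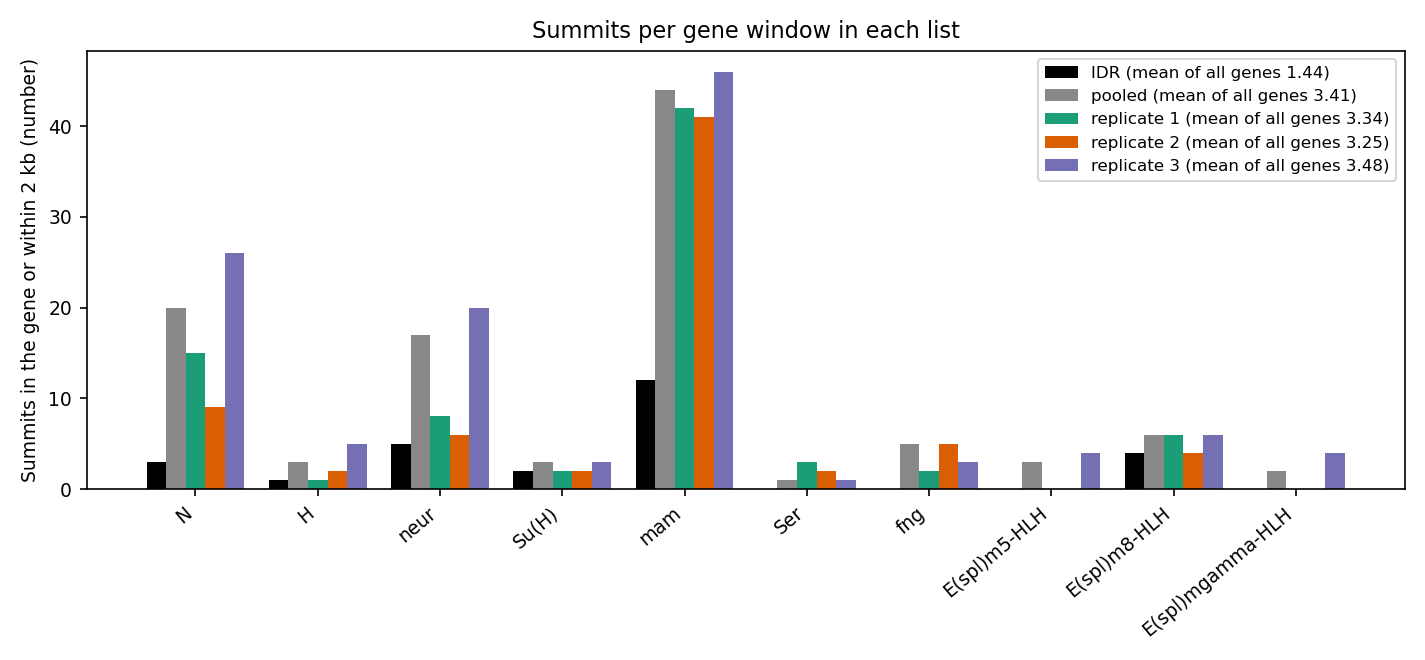
Number of summits in each gene or within 2 kb of it, in the IDR, pooled and replicate lists (bars, 1 value each), with the mean over all 13945 protein-coding genes in the legend. E(spl)m5-HLH and E(spl)mgamma-HLH have bars only for the pooled list and replicate 3, and mam exceeds 40 summits in the pooled list and in every replicate.

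The 27 IDR summits differed in how well the libraries shared them. A match within 200 bp among the 9708 best was present in all 3 replicates at 17 of the 27 (63%), compared with 77.1% of the IDR set, exactly 2 had one at 8 and 1 had one at 2. The share followed position: within 500 bp of any annotated start site it was 13 of 16 summits, compared with 83.1% of such IDR peaks, and elsewhere 4 of 11, of which 10 are in mam, compared with 59.8% of the 2512 such IDR peaks. The IDR set was itself chosen from these libraries, so the matches are not independent of it. Summits within 500 bp of a start site made up 59.3% of the 27 and 74.1% of the IDR set. Several summits of one gene share their surroundings and are not independent.

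Other genes of the pathway were counted in the same way. A list of 50 pathway genes by role, the 10 genes included, had an IDR summit in the window at 33 (66%), close to the 65.8% of all protein-coding genes. Outside the E(spl) complex it was 30 of 38 (78.9%), and within it 3 of 12. The genes for receptor cleavage had one at 7 of 7, those for receptor traffic at 6 of 7, and those of the nuclear complex at 10 of 11. Lower were ligand endocytosis with 3 of 7, receptor glycosylation and folding with 2 of 3, and the ligands with 1 of 2. The receptor gene N had one. An IDR summit nearest to the gene's own start site was found at 30 of the 50, compared with 45.4% of all protein-coding genes, of which 29 lie outside the E(spl) complex and 1 inside. The list was drawn up with results of these data known, neighbouring genes share summits, and no test was made.

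The strongest summits of the list lay at Su(dx), gro, neur, H and N. Su(dx), the gene of a ubiquitin ligase that lowers Notch activity, had the highest value (signal value 2007, rank 202, 65 bp before its start site), and the value in the neur window is that of the tgo promoter. The other ligand gene, Delta, was chosen for mention after its values were seen: unlike Ser it had an IDR summit at its start site, 92 bp upstream, but a weak one (rank 5820).

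Without an IDR summit outside the E(spl) complex were Ser, fng, spdo, which encodes a transmembrane protein of asymmetric division, Hey, which encodes an E(spl)-related repressor, and the Bearded family genes Brd, Tom, Ocho and BobA, whose products inhibit Neuralized. These 4 Bearded genes had peaks in replicate 3 only. Their windows held 0 summits in replicates 1 and 2 and 4, 4, 4 and 3 in replicate 3, and the best within 500 bp of the start sites ranked 21033, 10464, 12654 and 23829 there. With E(spl)mdelta-HLH, E(spl)mgamma-HLH, E(spl)m4-BFM and E(spl)m5-HLH they made 8 of the 50 genes with peaks in replicate 3 alone, against the 1.56% of all protein-coding genes given above. Genes of these clusters lie side by side and some windows overlap, so the 8 are not independent. The E(spl) complex genes named BFM, for Bearded family member, were mixed. E(spl)malpha-BFM, E(spl)m2-BFM and E(spl)m6-BFM had 1 and 1, 2 and 1, and 1 and 0 summits in replicates 1 and 2, and only E(spl)m4-BFM had none there. Among the promoters of the 8 genes Ocho held 2 Su(H) heptamers and E(spl)m4-BFM and E(spl)m5-HLH 1 each. In the list kuz and ago, which had an IDR summit within 500 bp of a start site, also held 1 each. For a gene with several start sites the highest count was taken, so heptamer and summit need not share a start site. The share of all genes counted in this way was not computed.

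**Figure D5:**
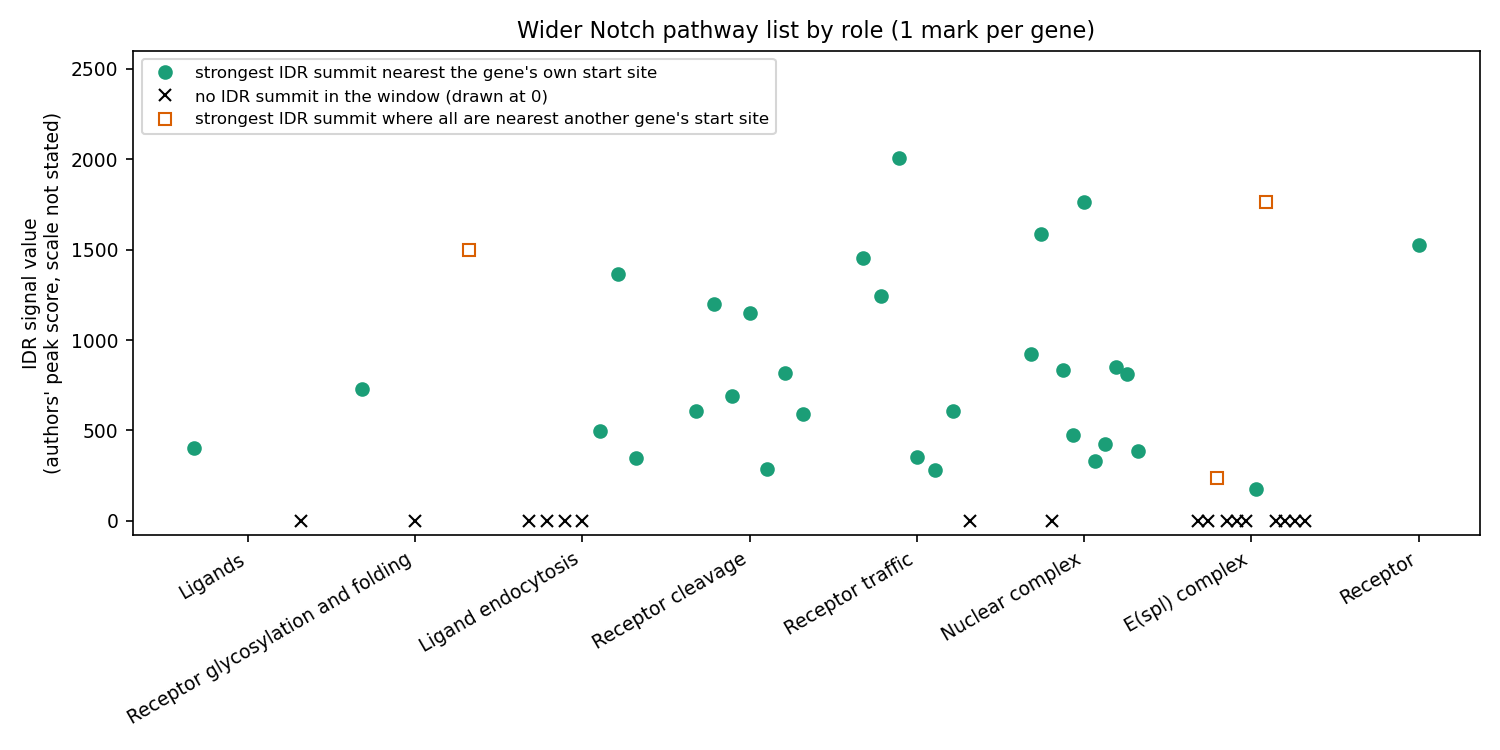
IDR signal value (the authors' peak score, scale not stated) for the 50 pathway genes by role, 1 mark per gene. Circles are the strongest IDR summit nearest the gene's own start site, squares the strongest where all were nearest another gene's, and crosses at 0 genes with no IDR summit in the window. Of 12 E(spl) complex genes 9 are crosses, while all 7 receptor cleavage genes are circles.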

How the data were processed

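Chromatin immunoprecipitation with sequencing had been done on 3 biological replicates of 1 group, sheared by sonication to 200-800 bp per the labels. The dm6 peak lists were used: the IDR set (9708 peaks), the pooled list (29999 peaks on the 6 arms used) and the replicate lists (29999, 28972 and 30000). Per the file records, the long lists are peaks and background as input for IDR, and lists in dm3 coordinates were not used. Column 7 holds the signal value that the authors deposited, on a scale not stated. The aligner, the peak caller and the reproducibility cut were not given in the sources used here, nor whether a control entered the calls. No read counts were given, so the depth is unknown. No region was identical in 2 replicate lists.

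Summits (start plus offset, counted from 1) were set against Ensembl release 115 gene models without transposable elements and the Release 6 sequence, using Python 3.11.15 and pandas 2.3.3. Genes were matched by symbol, 5 of the 50 pathway symbols through RefSeq synonyms. The counting and motif steps were tested on simulated data. A replicate match is a summit within 200 bp, and a neighbouring peak can serve as one. The members and lists were chosen with earlier results of these data known, so all results are descriptions with no test. Named are the 10 genes, the E(spl) complex, of the pathway genes outside that complex (members included) the 5 with the highest IDR value and all without an IDR summit, and genes with a start site nearer to a member's summit. Delta, kuz and ago fall outside this rule. Alternatives tried were other windows (0, 1 and 5 kb), promoter and matching distances, the strongest 4854 peaks, single libraries and leaving out each replicate, that is, keeping IDR peaks matched in both others.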

Additional observations from a re-analysis of the deposited data

How the results depend on the processing

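The count of genes with an IDR summit (6 of 10) was 6 with windows of 1 kb (60.8% of all protein-coding genes) or 5 kb (76.1%), among the strongest 4854 peaks (52.5%), in the best peaks of replicates 1 and 2 (66.6% and 66.7%) and without any 1 replicate (61.3% to 64.4%), and 7 in the best peaks of replicate 3 (62.9%). It moved to 3 with the gene body only (21%) and to 10 with the pooled list (76.5%). The 27 summits became 14 with the gene body only, 12 among the strongest 4854 peaks, 104 in the pooled list, and 18 to 21 without a replicate. The pathway list's 33 genes became 16 with the gene body only, 50 with the pooled list, and 32 without any 1 replicate. The 5 genes with a promoter summit stayed 5 under each promoter distance, among the strongest peaks and without any 1 replicate. Among the strongest peaks neur was counted through the summit at 9039690, which is nearer to a start site of hyx. The 17 summits found in all replicates became 26 with whole replicate lists, and 18 to 21 when 2 replicates had to match. The Su(H) heptamer seen at 1 summit was at 0 in windows reaching 50 bp to each side and at 1 in those reaching 200 bp. The gene body leaves out promoters by construction, and the pooled list holds 29999 peaks. Replicate 3 decides the statements on E(spl)mgamma-HLH, E(spl)m5-HLH, Brd, Tom, Ocho and BobA, which had no listed peak in the other replicates. It alone of the replicates was far above its genome rate of weak peaks over the E(spl) complex. No paired analysis was possible because there is 1 group and no comparison between groups.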

Other observations

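Of the 10 intronic IDR summits of mam, 6 lay in regions of exactly 464 bp, a width shared by 1123 of the 9708 IDR peaks (11.6%). The median signal value of the 27 summits was 388, compared with 519 over the IDR set. Per 10 kb of window the 10 genes held 1.2 IDR summits, counting each summit once, while the windows of all protein-coding genes held 1.32, counting a summit for each window it lies in.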
